A study of Mus musculus with 18 samples.

Results

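Heat shock proteins and chaperones were compared between WT ES cells kept in LIF and ES cells overexpressing STAT3-MER kept in OHT. The members were the probe sets whose chip annotation names a single gene with a symbol that starts with Hspa, Hspb, Hspd, Hspe, Hsph, Hsp90 or Dnaj, or with Cct followed by a digit. Each probe set on these chips joins several short oligonucleotides against the same transcript. This gave 171 of the 36701 probe sets tested, for 77 of 15964 named genes. The U74Av2 chip held 76 of them, the U74Bv2 chip 54 and the U74Cv2 chip 41. The symbol chose the members and no measured value entered the rule, which was set with earlier results of these data known.

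Both groups were embryonic stem cells of the FVB/N mouse strain, with 3 dishes each and 1 array per chip and dish, which makes 18 arrays. The STAT3-MER group is the 743 line, hemizygous for a transgene in which a chicken β-actin promoter drives the coding region of mouse STAT3 joined to a modified ligand-binding domain of the mouse estrogen receptor. OHT (4-hydroxytamoxifen) binds this domain, and these cells received OHT and no LIF. The WT cells carry no transgene and received LIF. The transgene and the medium therefore differ together and cannot be told apart. The 743 line goes back to a single founder, and each group is dishes of 1 line, so that p-values measure only the spread between dishes. The lines were established on growth-arrested mouse embryonic fibroblasts, so that fibroblast RNA may be present.

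Of 6 Esr1 probe sets, which name the receptor that is part of the transgene, 1 separated the groups. It lay at 40.3, 19.7 and 9.25 in the WT dishes and at 25848, 25568 and 31548 in the STAT3-MER dishes (limma adjusted p = 7.58e-06). None of the 5 other Esr1 probe sets passed, with ratios of means from 0.485 to 1.85. The STAT3 part of the transgene was not seen in this way, since none of the 4 Stat3 probe sets passed (ratios from 0.964 to 1.66, adjusted p = 0.9996 in limma for each). The summed signal of 8 markers of undifferentiated ES cells on U74Av2 ran from 55081 to 81623 in the WT dishes and from 59650 to 70469 in the STAT3-MER dishes. The summed signal of 15 fibroblast markers ran from 19049 to 39633 and from 11997 to 41445. None of the probe sets for these markers, or for markers of primitive endoderm and trophectoderm, passed the limma test, with median log2 differences of 0.14, -0.22, 0.14 and 0.03. For the fibroblast markers, 23 of 25 probe sets had the lower mean of log2(signal + 32) in the STAT3-MER cells, and 20 of 25 the lower mean signal. Precision was limited by the number of arrays, and the values carry no detection call. Signals were compared on the log2(signal + 32) scale, on which the difference of a dim probe set is understated.

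Chaperones bind other proteins that are not yet folded or have lost their fold. Hsp70 proteins bind short exposed stretches and release them on ATP turnover, J proteins (Dnaja, Dnajb, Dnajc) bring clients to Hsp70 and start this turnover, and Hsp110 proteins exchange the nucleotide of Hsp70. Hsp90 acts later, on kinases, steroid receptors and other clients. The CCT ring folds actin and tubulin in the cytosol, Hspd1 with its lid Hspe1 forms the chaperonin of mitochondria, and small heat shock proteins hold unfolded clients without ATP. Heat shock factor (HSF) raises many of these genes under stress, through repeated GAA and TTC units in their promoters.

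These units are shown first, because they are a feature that the symbol rule did not use. Of the 77 genes, 64 have a promoter window in the RefSeq table (GRCm38.p6), which spans 250 bases before to 50 bases after a start. The letters GAANNTTC, which read the same on both strands, were present in a window of 15 of 64 member genes (23.4%), against 9.04% of all 27025 genes of the table. With one more unit in turn after 2 free letters, on either side, they were present in 4 member genes (6.25%) against 0.662% of all genes. These 4 genes were Hspd1, Hspe1, Dnajb6 and Hsph1, of which Hspd1 and Hspe1 are counted for the same run of letters. Hspa1a and Hspa1b, whose stretches are the same, are both among the 15. A match is a run of letters and does not show binding. By class, the 2-unit letters were present in 2 of 2 mitochondrial chaperonin genes, 4 of 7 small heat shock protein genes, 2 of 9 Hsp70 genes and 2 of 8 CCT genes. Among J proteins they were present in 2 of 4 Dnaja, 1 of 13 Dnajb and 1 of 17 Dnajc genes.

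Hspd1 and Hspe1 lie head to head on chromosome 1, and the stretch between them carries 4 alternating units. The stretches below are from the strand of the named gene, 5′ to 3′, with the GAA and TTC units in capitals. Hspe1 and Dnajb6 are shown for their longer runs of units, and Hspa1a and Hspb1 as stress-inducible genes. The Hspe1 stretch is chr1:55088029-55088106 (plus strand), the Dnajb6 stretch chr5:29735822-29735894 (plus strand), the Hspa1a stretch chr17:34972223-34972290 (minus strand) and the Hspb1 stretch chr5:135887772-135887859 (plus strand).
Hspe1: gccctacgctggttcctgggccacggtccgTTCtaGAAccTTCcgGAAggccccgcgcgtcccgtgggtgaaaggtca
Dnajb6: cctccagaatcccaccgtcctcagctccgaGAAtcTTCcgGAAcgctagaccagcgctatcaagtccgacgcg
Hspa1a: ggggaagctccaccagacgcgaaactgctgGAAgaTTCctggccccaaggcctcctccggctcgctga
Hspb1: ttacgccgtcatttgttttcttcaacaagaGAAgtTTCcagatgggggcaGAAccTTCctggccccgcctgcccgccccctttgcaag
The Hspe1 stretch ends 42 bases before the start of Hspe1, and its reverse complement lies upstream of a start of Hspd1. The Hspa1a stretch is the same, over all 68 bases, as the one upstream of Hspa1b, its neighbour on chromosome 17.

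No chaperone differed between the groups past the test. None of the 171 member probe sets passed the limma test at an adjusted p of 0.05, in either direction. Over all 36701 probe sets, 1 passed as higher (0.00272%), which is the Esr1 probe set above, and 0 passed as lower (0%). The smallest adjusted p of a member was 0.9996. At an unadjusted limma p under 0.05, 3 members were higher (1.75%) and 2 were lower (1.17%), against 1.88% higher and 1.57% lower of all probe sets. The 3 STAT3-MER dishes lay above the 3 WT dishes for 8 members (4.68%) and below them for 3 (1.75%), against 4.5% and 3.63% of all probe sets. The methods' criteria were a ratio of means over 1.5, a difference over 100 and an unadjusted p under 0.1 in the methods' t-test, on dCHIP model values. Applied here to the deposited signals, with unequal variances assumed, 4 members were higher (2.34%) and 1 was lower (0.585%), against 1.1% and 0.872% of all probe sets. The median log2 difference, STAT3-MER minus WT, was 0.01 over the members, with 89 positive and 82 negative values, and 0.01 over all probe sets.

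**Figure D1:**
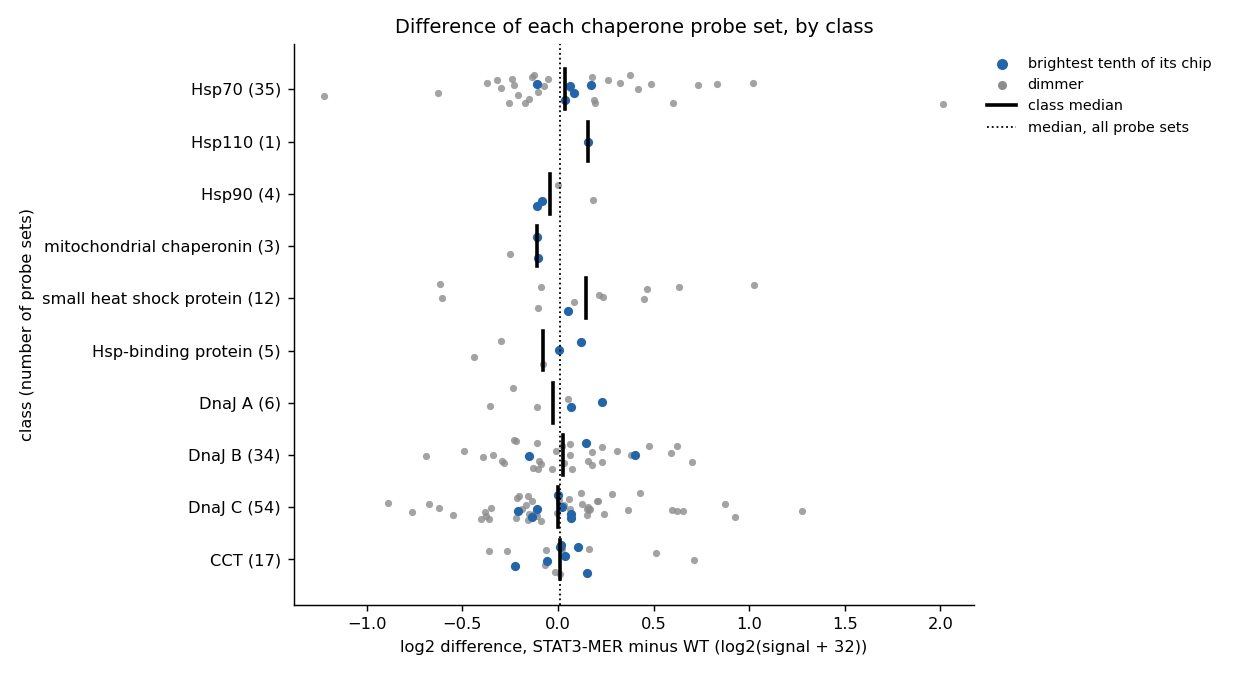
Log2 difference (STAT3-MER minus WT, on the log2(signal + 32) scale) of each of the 171 chaperone probe sets, by class, with the number of probe sets in parentheses. Blue points are probe sets with a rank above 90% in their chip, grey points the dimmer ones, black bars class medians and the dotted line the median of all 36701 probe sets. The class medians lie between -0.11 and 0.16, and the blue points lie between -0.22 and 0.40.

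The level of a class is given as the rank of its probe sets within their chip, since probe sets differ in how well they bind and their signals cannot be set against each other directly. Classes follow the symbol, so that Hspa4 and Hspa4l, relatives of Hsph1, count in the Hsp70 class and Hsp110 holds Hsph1 alone. The median rank was 98.4% for the 3 probe sets of the mitochondrial chaperonin and 96.7% for the only probe set of Hsph1. It was 85.5% for the 17 of CCT and 83.6% for the 5 of the Hsp-binding proteins (Hspbp1 and Hspbap1). It was lower for the 6 of Dnaja (70.2%) and the 54 of Dnajc (63.5%). The 12 of small heat shock proteins lay at 57.2%, the 4 of Hsp90 at 55.6%, the 35 of Hsp70 at 52.9% and the 34 of Dnajb at 48.6%. The range within a class was wide. Hsp90 held the brightest probe set of all members, for Hsp90aa1, and another probe set of the same gene at a rank of 3.88%. In all, 32 member probe sets of 25 genes had a rank above 90% and are called bright here, while 64 had a rank of at most 50% and 35 had a mean signal under 100.

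**Figure D2:**
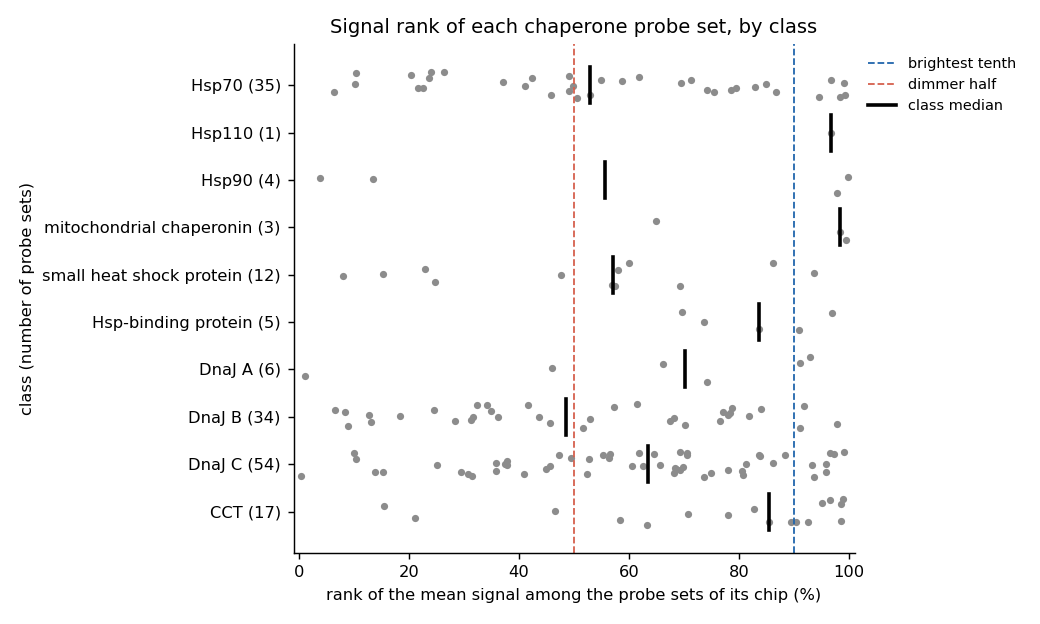
Rank of the mean signal over the 6 dishes among all probe sets of the same chip, for each chaperone probe set, by class. Black bars are class medians and dashed lines mark ranks of 50% and 90%. The mitochondrial chaperonin and Hsp110 medians lie above 90%, the CCT median at 85.5%, and Hsp70, Dnajb and Dnajc probe sets spread over nearly the whole range.

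Among the 32 bright probe sets, the log2 differences ran from -0.22 to 0.40, and 31 of 32 (96.9%) lay within 0.3 of 0. Of all 3672 bright probe sets of the chips, 82.2% did so. The 95% interval of such a member reached a median of 0.50 to either side, and for 26 of the 32 the whole interval stayed between -1 and 1. The median SD of log2 values between dishes of a group was 0.26 for these members and 0.30 for all bright probe sets.

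Of the Hsp90 genes, Hsp90aa1 and Hsp90b1 were members, each with 1 bright probe set. The Hsp90aa1 probe set (Hsp90 alpha, the stress-responsive form in the cytosol) gave 32517, 24451 and 24141 over the WT dishes against 22341, 21728 and 33072 over the STAT3-MER dishes. The groups overlapped, with a ratio of means of 0.951 (95% interval 0.63 to 1.40). Here and below, the interval given for a ratio is that of the log2 difference from limma, turned into a ratio. It was not computed from the mean signals. The other Hsp90aa1 probe sets were dim, between 8.95 and 76.7 over all dishes. Hsp90b1, the Hsp90 of the endoplasmic reticulum, gave 6517, 4097 and 6757 over the WT dishes against 4116, 6279 and 5577 over the STAT3-MER dishes (ratio 0.919, 95% interval 0.62 to 1.40). Its lowest dishes were WT 2 and STAT3-MER 1, which also had the lowest sums of fibroblast markers, 19049 and 11997. The part of fibroblast RNA in this was not tested. Hsp90ab1 was not analysed here.

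Among Hsp70 genes, the constitutive forms were bright and steady. Hspa8, the cognate Hsp70 of the cytosol, gave 14408 ± 1535 (SD, n = 3) for WT against 15248 ± 1240 for STAT3-MER, and no dish was more than 1.22 times another. Hspa9, the Hsp70 of mitochondria, gave 11993 ± 803 and 12372 ± 1560 (SD, n = 3). For both, the 95% interval of the ratio (0.79 to 1.43 and 0.76 to 1.38) stayed within a 1.5-fold change. The 2 dimmer probe sets of Hspa9 were at log2 differences of -0.37 and 0.42.

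The stress-inducible pair Hspa1a and Hspa1b had ranks of 69.4% and 50.5% on U74Av2. Hspa1a gave 548, 398 and 357 over the WT dishes against 330.4, 532 and 394 over the STAT3-MER dishes. Hspa1b gave 209.7, 124 and 169 over the WT dishes against 129, 190.2 and 105 over the STAT3-MER dishes. In both genes the highest dishes were WT 1 and STAT3-MER 2, and the groups overlapped. Their coding sequences are nearly identical, so that the probe sets may share transcripts. Hspa2, known from testis, gave 769.8, 1306 and 782 over the WT dishes against 609, 1513 and 582 over the STAT3-MER dishes, with dish 2 highest in each group on U74Bv2. Hspa1l, a further testis form, gave 74.9 ± 9.33 and 72.7 ± 39.9 (SD, n = 3).

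The Hsp110 family exchanges the nucleotide of Hsp70. Hsph1 gave 2861, 4725 and 4028 over the WT dishes against 5997, 3361 and 3739.9 over the STAT3-MER dishes. Its highest dish was STAT3-MER 1 and its lowest WT 1, and the log2 difference was 0.16 (95% interval -0.48 to 0.79). Hspa4, a relative of Hsph1 despite its symbol, had 5 probe sets whose log2 differences ran from -0.63 to 0.17. The brightest gave 2467, 5013 and 5225 over the WT dishes against 2320.1, 3322 and 6624 over the STAT3-MER dishes, with a 2.86-fold range over the 6 dishes. The 2 next brightest probe sets of Hspa4 ranged over 1.41-fold and 1.22-fold, and the 2 dimmest over 2.46-fold and 2.03-fold.

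**Figure D3:**
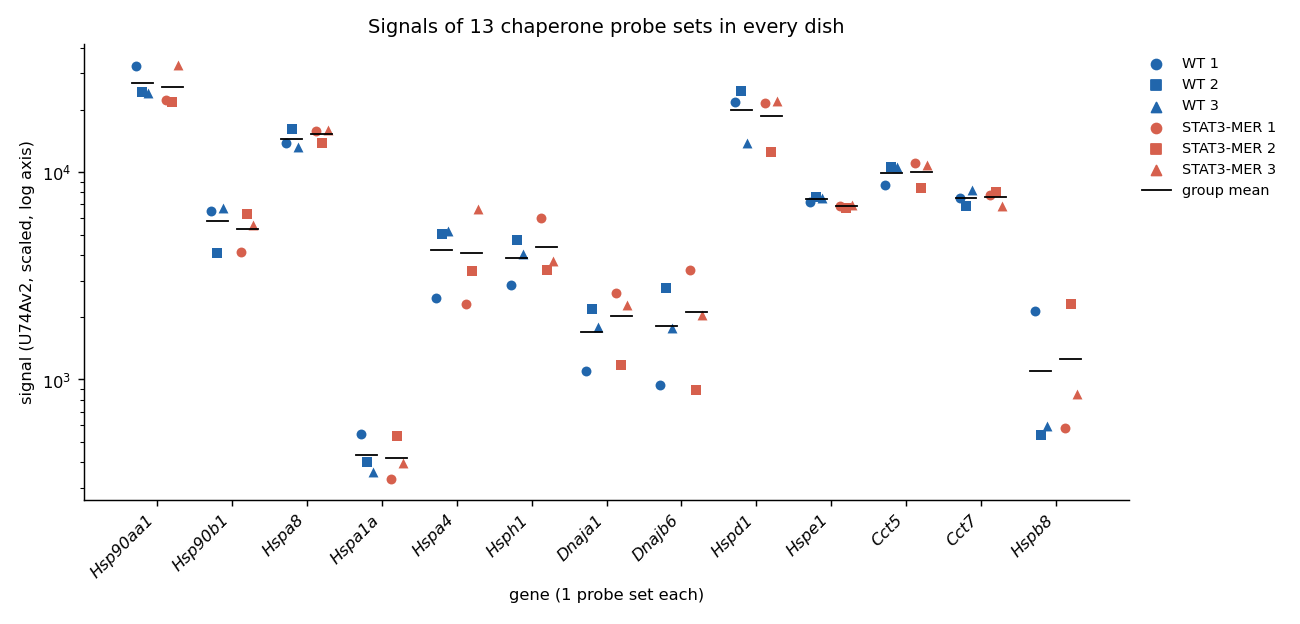
Signal of 13 chaperone probe sets on U74Av2 (for Dnajb6, the dimmer of 2 bright ones) in each of the 6 dishes, on a log axis. Blue symbols are WT and red symbols STAT3-MER dishes, the shape gives the replicate number and black lines are group means. The groups overlap for every gene shown except Hspe1, whose 3 STAT3-MER dishes (6745 to 6955) lie just below the 3 WT dishes (7156 to 7566).

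Of the J proteins, the Dnaja genes had 6 probe sets with log2 differences from -0.36 to 0.23. Dnaja1, the main partner of Hspa8 in the cytosol, gave 1101, 2188 and 1801 over the WT dishes against 2613, 1180 and 2295 over the STAT3-MER dishes. WT 1 and STAT3-MER 2 were low, and the other dishes lay between 1801 and 2613. Dnaja3, its mitochondrial relative, varied less, from 1981 to 2483 over the 6 dishes. Dnaja4 gave 415, 613 and 521 over the WT dishes against 233, 520.0 and 486 over the STAT3-MER dishes, which overlap.

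The Dnajb genes had 34 probe sets with a median log2 difference of 0.03. Dnajb6, which keeps aggregating proteins apart, was the brightest, at 4892, 6777 and 6165 over the WT dishes against 6457, 4130.1 and 5560 over the STAT3-MER dishes. Its second probe set gave 938, 2749 and 1776 over the WT dishes against 3391, 888 and 2058 over the STAT3-MER dishes. Both were lowest in WT 1 and STAT3-MER 2. A dimmer U74Cv2 probe set of Dnajb6 was at a log2 difference of -0.49. Dnajb1, the partner of Hspa1a under heat shock, gave 494, 425 and 334 over the WT dishes against 334, 485 and 337 over the STAT3-MER dishes, with WT 1 and STAT3-MER 2 highest. Its other probe set, on U74Cv2, gave 642 ± 194 and 624 ± 94.9 (SD, n = 3). Dnajb11, a J protein of the endoplasmic reticulum, gave 658 ± 49.9 for WT against 778 ± 85.3 for STAT3-MER, with a log2 difference of 0.23 (95% interval -0.20 to 0.66).

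For Dnajb2, 3 of 4 probe sets, on different chips, had the higher mean in STAT3-MER cells. One gave 756, 759 and 746 over the WT dishes against 904, 841 and 1287 over the STAT3-MER dishes, without overlap (log2 difference 0.38, 95% interval -0.17 to 0.94). The groups overlapped for the other probe sets, with log2 differences of 0.59, 0.62 and -0.23. The name of the non-overlapping probe set carries the suffix f, which marks possible binding of related transcripts.

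The Dnajc genes had 54 probe sets of 24 genes, with a median log2 difference of 0.00 and 27 values on either side of 0. Dnajc8, found with splicing factors, was the brightest, at 11486 ± 353 for WT against 10672 ± 1251 for STAT3-MER (SD, n = 3). Dnajc5, the J protein of secretory vesicles, gave 3111 ± 282 and 3259 ± 162. Dnajc7, which also binds Hsp90, gave 2568, 4123 and 3361 over the WT dishes against 3944, 2658 and 3936 over the STAT3-MER dishes, with WT 1 and STAT3-MER 2 again lowest. Dnajc2, a J protein at the ribosome, had 2 bright probe sets with log2 differences of 0.00 (95% interval -0.43 to 0.44) and -0.14.

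The mitochondrial chaperonin was among the brightest of all. Hspd1 gave 21734, 24687 and 13821 over the WT dishes against 21503, 12570 and 22078 over the STAT3-MER dishes. One dish of each group, WT 3 and STAT3-MER 2, was low, and its second and dimmer probe set had the same 2 dishes lowest (296 and 211 against 351 to 427 elsewhere). Hspe1 gave 7156, 7566 and 7478 over the WT dishes against 6857, 6745 and 6955 over the STAT3-MER dishes. The groups did not overlap, but the ratio of means was 0.926 and the log2 difference was -0.11 (95% interval -0.48 to 0.26). The promoter windows of Hspd1 and Hspe1 have 285 bases in common. On its bright probe set, the signal of Hspd1 ranged over 1.96-fold among dishes and that of Hspe1 over 1.12-fold. A link between the shared bases and these ranges was not tested.

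The CCT genes had 17 probe sets with log2 differences from -0.36 to 0.71 and a median of 0.01. The brightest probe sets of Cct3, Cct4, Cct5, Cct6a and Cct7 were bright, that of Cct8 was just below the limit at a rank of 89.5%, and that of Cct2 was at 82.7%. Cct5 gave 8654, 10633 and 10616 over the WT dishes against 11031, 8411 and 10788 over the STAT3-MER dishes, with a ratio of 1.01 (95% interval 0.74 to 1.38). Cct7 gave 7478, 6856 and 8209 over the WT dishes against 7783, 8061 and 6897 over the STAT3-MER dishes, with a ratio of 1.01 (95% interval 0.77 to 1.33).

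Cct4 gave 7265 ± 1028 for WT against 7873 ± 1514 for STAT3-MER, Cct6a 4008 ± 382 and 3867 ± 579, and Cct2 870.0 ± 126 and 971 ± 87.6 (SD, n = 3). Cct8 gave 2112, 1320 and 1760 over the WT dishes against 1411, 1527 and 1293 over the STAT3-MER dishes, where 1 WT dish lay under 2 of the STAT3-MER dishes (log2 difference -0.27, 95% interval -0.75 to 0.22). Cct3 gave 2055, 2462 and 5203 over the WT dishes against 2851, 1814 and 3191 over the STAT3-MER dishes, with WT 3 highest. WT 3 was also highest on a dimmer U74Av2 probe set of Cct3 (639, 479.9 and 1283 over the WT dishes) but not on a second bright one (1659, 2438 and 2182 over the WT dishes). Cct6b, the testis form of Cct6a, gave 1029 ± 297 and 1028 ± 274. A U74Cv2 probe set of Cct6a gave 299, 445 and 305 over the WT dishes against 734, 389 and 692 over the STAT3-MER dishes, with 1 STAT3-MER dish inside the WT range.

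The small heat shock proteins varied most from dish to dish, with a median SD of 0.70 on the log2 scale against 0.36 over all members and 0.42 over all probe sets. Hspb8, a partner of Bag3 in the removal of misfolded proteins, gave 2151, 538 and 596 over the WT dishes against 582, 2321 and 851 over the STAT3-MER dishes. WT 1 and STAT3-MER 2 stood far above the other dishes, on both probe sets of the gene (242 and 255 on the second, against 9.17 to 133 elsewhere). Hspb2, a small heat shock protein of muscle, had the same 2 dishes highest on one U74Av2 probe set, at 546 and 656 against 288 to 414. Its brightest probe set, on U74Cv2, was highest in WT 2 (4766) and STAT3-MER 2 (2899.8). The median log2 deviation of the 6 U74Av2 probe sets of this class from their mean over the dishes was 0.67 in WT 1 and 0.59 in STAT3-MER 2, and between -0.45 and -0.16 in the other dishes.

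Fibroblast markers summed to 35548, 19049 and 39633 in the WT dishes and to 11997, 41445 and 30713 in the STAT3-MER dishes. They were thus high in WT 1 and STAT3-MER 2, but also in WT 3, where Hspb8 was at 596. Primitive endoderm markers on U74Av2, with Sparc on this list too, summed to 4865, 2024 and 3086 in the WT dishes. In the STAT3-MER dishes they summed to 2295, 4474 and 3788.5, so that WT 1 and STAT3-MER 2 were highest. Trophectoderm markers summed to 6048, 4005 and 3048 in the WT dishes and to 5725, 5377 and 3215 in the STAT3-MER dishes. The part of any of these cell types in the level of Hspb8 was not tested. In such bulk RNA, fewer cells of a type and less RNA per cell cannot be told apart. Hspb1 (Hsp25 in the mouse) was dim on both of its probe sets, whose log2 differences of -0.61 and 1.02 pointed in opposite directions. The U74Av2 probe set gave 47.4, 19.4 and 29.1 over the WT dishes against 4.99, 14.4 and 8.99 over the STAT3-MER dishes. The U74Cv2 probe set gave 110.0, 28.8 and 17.0 over the WT dishes against 278, 85.9 and 65.6 over the STAT3-MER dishes.

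Many bright chaperones were low in the same dishes, one from each group. These dishes were picked after the values were seen, so that the shares below are a description with no test. Of the 25 bright members on U74Av2, 12 (48%) had WT 1 and STAT3-MER 2 as their 2 lowest dishes, against 24.9% of the 1218 other bright probe sets of that chip. The lowest dish of all was WT 1 for 7 of these 25 members (28%, against 22.1% of the others) and STAT3-MER 2 for 12 (48%, against 25%). Neither was the highest dish for any of the 25, against 20.0% and 12.4% of the others. The median log2 deviation of the 25 members was -0.19 in WT 1 and -0.24 in STAT3-MER 2, against -0.03 and -0.09 for the other bright probe sets. In the other dishes the median of the members was between 0.03 and 0.16. The members low in these dishes include Hsph1, Dnaja1, Dnaja3, Dnajb6, Dnajc7, Cct3, Cct4, Cct5 and Cct6a.

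The members with these 2 dishes highest were fewer, at 10 of the 76 on U74Av2 (13.2%, against 15.1% of all 12422 probe sets of that chip). None of them was bright. They include Hspa1a, Hspa1b, Dnajb1, Hspb2 and both probe sets of Hspb8. Genes with the GAANNTTC letters were on both sides, with Hspa1a, Hspa1b and Hspb8 high and Hsph1, Dnaja1 and Dnajb6 low in these dishes. Pluripotency factors were on both sides too. Pou5f1 was lowest in the same dishes on its bright probe set, at 2157 and 3562 against 5054 to 8348 elsewhere. Nanog was highest in them on both of its probe sets (14179 and 11228 on the brighter one, against 7035 to 10689 elsewhere), and so was Sox2 (13355 and 12079, against 8933 to 11645). Over all probe sets of U74Av2, the deviations of these dishes from their group means correlated at 0.46, so that the pattern was not limited to chaperones. As 1 of the 2 dishes belongs to each group, this pattern adds to the spread within both. All arrays had trimmed means between 500.1 and 500.3. The part of RNA from fibroblasts or other cell types, with marker sums given above by dish, was not tested.

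**Figure D4:**
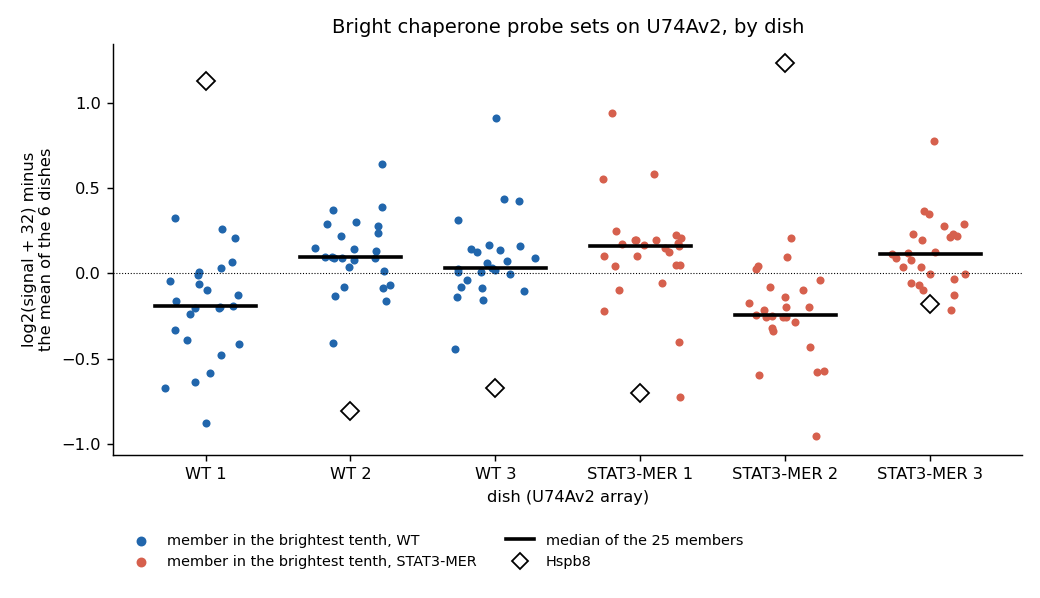
Deviation of log2(signal + 32) from the mean of the 6 dishes for the 25 bright chaperone probe sets of U74Av2 (rank above 90%), by dish. Filled points are probe sets, black bars their medians and open diamonds Hspb8. The medians are -0.19 in WT 1 and -0.24 in STAT3-MER 2 and lie between 0.03 and 0.16 in the other dishes, while Hspb8 is highest in WT 1 and STAT3-MER 2.

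The 11 member probe sets whose dishes did not overlap belong to 11 genes, and only that of Hspe1 was bright. The one with the smallest p was for Hspa13, an Hsp70 of the endoplasmic reticulum, at 27.9, 7.06 and 11.3 over the WT dishes against 166, 119.9 and 191 over the STAT3-MER dishes. Its log2 difference was 2.02 (SE 0.38), with a limma adjusted p of 0.9996. The 5 other probe sets of Hspa13 had log2 differences from -0.32 to 0.32. The brightest of them gave 6289, 4631 and 5874 over the WT dishes against 7236, 5868 and 4619 over the STAT3-MER dishes. The difference was thus seen by one dim probe set of 6.

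For the next ones, too, the further probe sets of the gene were nearer to 0 or of the other sign. Dnajc2 had a U74Cv2 probe set at 77.7, 108 and 228 over the WT dishes against 326, 434 and 307 over the STAT3-MER dishes (log2 difference 1.28), while its 2 bright probe sets were at 0.00 and -0.14. Dnajc21, which acts in the maturation of ribosomes, had one at 296, 366 and 287 over the WT dishes against 742, 652 and 509 over the STAT3-MER dishes (log2 difference 0.93, 95% interval 0.19 to 1.67), while its 3 others were between -0.09 and 0.24. Hspa12a, a distant relative of Hsp70, had one at 501, 348 and 242 over the WT dishes against 230.5, 96.4 and 98.3 over the STAT3-MER dishes (log2 difference -1.22), while its brightest probe set was at 0.73 and its 3 dimmer ones at -0.26, 0.19 and 0.26. These 3, the Hspa13 probe set and the dim Hspb1 probe set on U74Av2 are the 5 members with an unadjusted limma p under 0.05.

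Of the remaining non-overlapping probe sets, Hspa4l gave 63.1 ± 25.9 for WT against 135 ± 26.5 for STAT3-MER, and Dnajc18 151 ± 65.4 and 292 ± 53.8 (SD, n = 3). Dnajb13 gave 45.9 ± 9.97 and 76.1 ± 6.94, and Dnajb14 115 ± 77.3 and 177 ± 17.2. Each of these 4 genes has a further probe set with a difference of the opposite sign. Over the members, 45 genes had 2 or more probe sets, and in 34 of these the probe sets differed in sign. In 11 the signs were the same, among them Cct4, Cct5, Dnajb1, Hspb8 and Hspd1.

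**Figure D5:**
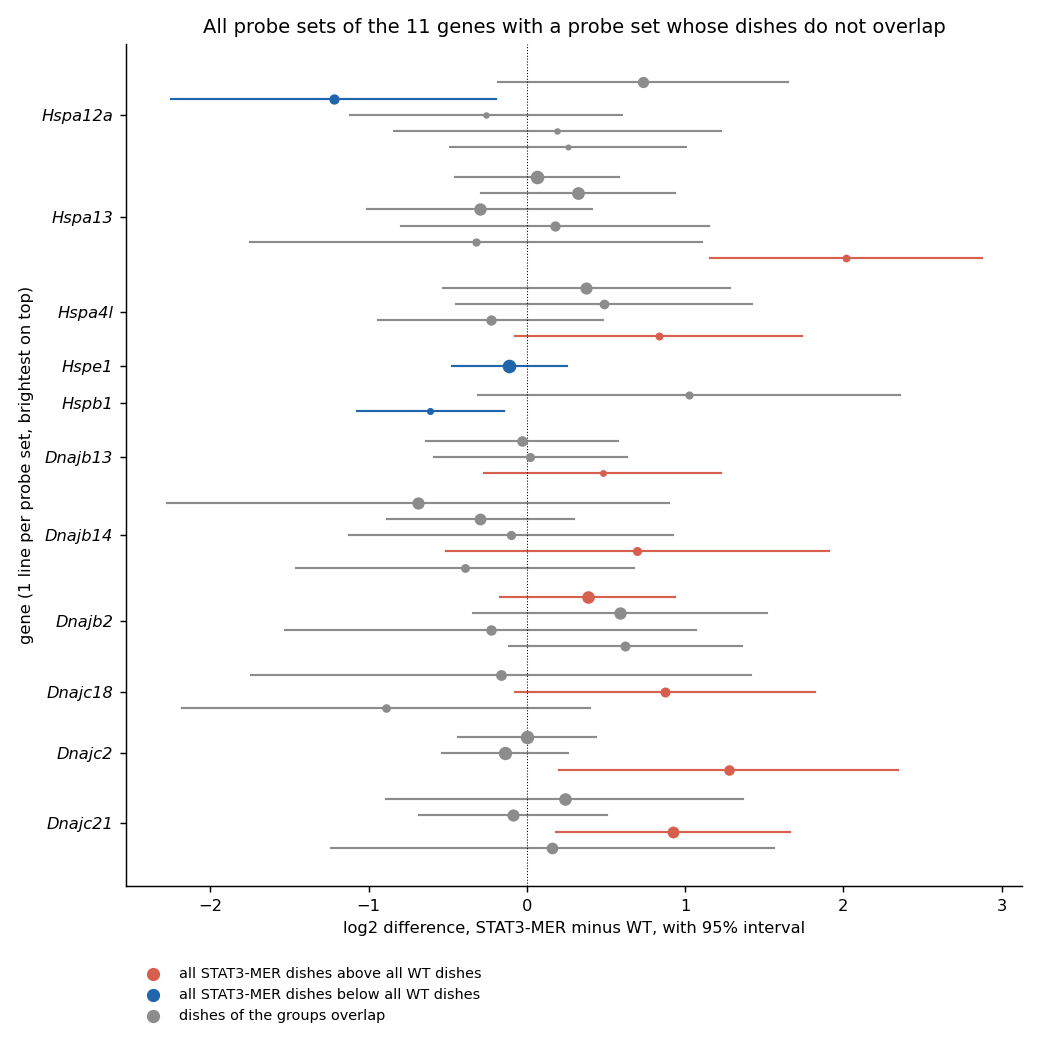
Log2 difference (STAT3-MER minus WT) with its 95% interval for every probe set of the 11 genes that have a probe set whose dishes do not overlap between groups. Each line is a probe set, with the brightest of a gene on top and larger points for higher ranks. Red marks probe sets with all STAT3-MER dishes above all WT dishes, blue those with all below, and grey the rest. Of these genes only Hspe1 has a single probe set. For Hspa13 the red probe set is at 2.02 and the 5 others are between -0.32 and 0.32.

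Set side by side, the class medians of the log2 difference were 0.04 for Hsp70 (with Hspa4 and Hspa4l) and 0.16 for Hsp110 (Hsph1 alone). They were -0.04 for Hsp90, -0.11 for the mitochondrial chaperonin and 0.15 for small heat shock proteins. They were -0.08 for the Hsp-binding proteins, -0.03 for Dnaja, 0.03 for Dnajb, 0.00 for Dnajc and 0.01 for CCT, against 0.01 over all probe sets. The SD of a class median between dishes of a group was 0.05 for Hsp70, 0.41 for Hsp110, 0.23 for Hsp90, 0.33 for the mitochondrial chaperonin, 0.43 for small heat shock proteins and 0.06 for CCT. It was 0.11 for Dnaja, 0.12 for Dnajb, 0.03 for Dnajc and 0.09 for the Hsp-binding proteins. For a class with probe sets on several chips, this SD joins the chips by dish number, which may not name the same dish on each. Each of these 10 medians lay within 1 such SD of 0, which is a description and no test. Hspbp1, which releases nucleotide from Hsp70, gave 786, 1138 and 1161 over the WT dishes against 513, 1299 and 602 over the STAT3-MER dishes. Hspbap1 gave 3653 ± 525 and 3969 ± 485 (SD, n = 3) on its brightest probe set. The 15 genes with the GAANNTTC letters had a median of -0.07 over their brightest probe sets and the 49 genes with a window but without the letters a median of -0.06.

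The partners of the chaperones were taken from lists of HSF regulators, Hsp90 cochaperones, Hsp70 cochaperones, prefoldin with tubulin cofactors, and chaperones of the endoplasmic reticulum and mitochondria. None of their 4, 31, 32, 24 and 26 probe sets passed the limma test in either direction, and their median log2 differences were 0.17, 0.01, 0.05, -0.07 and 0.08. At an unadjusted limma p under 0.05 there were 0, 3, 1, 1 and 2 probe sets. The prefoldin list also holds Tcp1, a subunit of the CCT ring whose symbol the member rule does not cover.

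Of the HSF regulators, Hsf2 gave 10.8, 16.5 and 19.0 over the WT dishes against 45.9, 51.5 and 13.7 over the STAT3-MER dishes on a dim probe set and 746 ± 370.2 and 495 ± 125 (SD, n = 3) on a brighter one. Hsbp1, which binds HSF, gave 599, 406 and 625 over the WT dishes against 549, 691 and 889 over the STAT3-MER dishes. Among Hsp90 cochaperones, Stip1, which links Hsp70 to Hsp90, gave 608, 618 and 888 over the WT dishes against 1165, 1277 and 1135 over the STAT3-MER dishes on U74Cv2 (log2 difference 0.75). Its U74Av2 probe set gave 900.4 ± 341 and 987 ± 247, with overlap. Chordc1 gave 5.47, 13.5 and 5.62 over the WT dishes against 163, 214 and 32.7 over the STAT3-MER dishes (log2 difference 1.87), while its 2 brighter probe sets were at -0.10 and 0.03. Both the Stip1 and the Chordc1 probe set had an unadjusted limma p under 0.05. The remaining probe set of this list under that limit, for Sugt1, was lower in STAT3-MER cells. It gave 958 ± 209 for WT against 612 ± 77.0 for STAT3-MER (SD, n = 3), without overlap (log2 difference -0.61). The brighter Sugt1 probe sets were at -0.32 and -0.23, with overlap.

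Among Hsp70 cochaperones, Bag5 gave 189, 174 and 296 over the WT dishes against 418, 382 and 455 over the STAT3-MER dishes (log2 difference 0.87), while its brighter probe set was at 0.10. St13 gave 168, 207 and 174 over the WT dishes against 46.1, 35.6 and 199.6 over the STAT3-MER dishes (ratio of means 0.512), with overlap, while its 4 other probe sets, 3 of them bright, were at log2 differences of -0.06 to 0.20. Of the tubulin cofactors, Tbcc had probe sets at -1.11 and 1.08. Of the mitochondrial proteins, Clpx, which unfolds proteins for degradation, had probe sets at -1.63 and 0.67, and its brightest probe set was at 0.24. Here too the probe sets of one gene differed in sign. Serpinh1, the collagen chaperone of fibroblasts, gave 1410.4, 385 and 2593 over the WT dishes against 412, 1411 and 1938 over the STAT3-MER dishes, and its lowest dishes, WT 2 and STAT3-MER 1, were those with the lowest sums of fibroblast markers.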

How the data were processed

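RNA was amplified in 2 rounds and hybridized to U74Av2, U74Bv2 and U74Cv2 chips. For each array the authors deposited signal intensity values by probe set, without log transformation. The submitters' processing notes name MAS5, and no version is given in the sources used here. The trimmed mean of every array (2% left out on each side) was 500.1 to 500.3. Groups come from the labels. For STAT3-MER on U74Av2, 1 label lacks a number, and 2 was used as the number left. Whether a WT number names the same dish on every chip is not certain, so that patterns by dish are given within a chip. The SD of class medians and the fits with a dish left out did use the number over all chips. 

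Arrays were scaled to the mean trimmed mean of their chip, which hardly altered the values. Then log2(signal + 32) was compared with limma 3.58.1 in R 4.3.3 (two-sided, each chip fitted by itself with lmFit and a trended eBayes), with Benjamini-Hochberg adjustment over 36701 probe sets that are not controls. The fit was tested on simulated data. The study compared dCHIP model values, so that the methods' t-test, whose form is not given in the sources used here, was run with unequal variances on the scaled signals. Scripts used Python 3.11.15, pandas 2.3.3, numpy 2.4.6, scipy 1.17.1 and matplotlib 3.10.9. Gene names come from the chip annotation. Of the 171 members, 49 have a suffix that marks probe sets outside the standard design, some of which may bind related transcripts. Updating symbols through RefSeq changed no member. The annotation gave 3 further probe sets several symbols, and these were left out. 1 further gene of these prefixes is not reported here. Promoter windows are those of RefSeq for GRCm38.p6, searched for GAANNTTC and for the same with one more unit.

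The members, the classes, the partner lists and the marker lists were chosen with earlier results of these data known. Values in every dish are given for the brightest probe set of the main chaperones, the 2 probe sets of each class and partner list with the smallest p, and non-overlapping probe sets with a group mean over 500. Other members named, among them Hspb2, Hspb8, Dnajb6, Dnajc5, Dnajc7 and Dnajc8, were chosen after their values were seen. Alternatives were quantile and median scaling, no rescaling, a pseudocount of 8 or 100, removal of probe sets with a mean signal under 100, eBayes without a trend, a replicate block, each dish left out, adjustment within each chip, the methods' t-test with equal variances or on log2 values, a ratio over 2, 1 probe set or the mean per gene, probe sets without suffix and updated symbols.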

Additional observations from a re-analysis of the deposited data

How the results depend on the processing

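No member passed the limma test under any alternative tried (0 with each dish left out). Among the fits adjusted over all chips together, the smallest limma adjusted p of a member was 0.8264, without a trend. Members with an unadjusted limma p under 0.05 numbered 5, against 5 to 9 with a dish left out, 8 without a trend, 4 without dim probe sets and 3 without suffix probe sets. The Hsp70 median of 0.04 was -0.024 after quantile normalization, -0.019 with a pseudocount of 100, -0.063 without dim probe sets and -0.077 with the brightest probe set per gene. The Dnajc median of 0.00 was -0.033 after quantile normalization, -0.035 after median scaling, -0.054 with the brightest probe set per gene and -0.045 without suffix probe sets. The Hsp-binding median of -0.08 was 0.064 with the brightest probe set per gene and -0.30 without suffix probe sets, and the median of all members was -0.022 without dim probe sets. With each dish left out, medians ran from 0.026 to 0.14 (Hsp70), -0.096 to 0.32 (Hsp110), -0.14 to 0.10 (Hsp90), -0.35 to -0.019 (mitochondrial chaperonin), -0.069 to 0.31 (small heat shock proteins), -0.30 to -0.033 (Hsp-binding proteins), -0.10 to 0.0095 (Dnaja), -0.083 to 0.057 (Dnajb), -0.078 to -0.0038 (Dnajc), -0.043 to 0.061 (CCT) and -0.034 to 0.036 (all members). Non-overlapping members went from 8 to 5 higher ones without dim probe sets and from 3 to 6 lower ones after quantile normalization. By the methods' criteria, the 1 lower member became 2 with equal variances and 2 with the methods' t-test on log2 values, and with a dish left out 3 to 5 members were higher and 0 to 3 lower. Partner medians with a dish left out ran from -0.026 to 0.26 (HSF regulators), -0.053 to 0.085 (Hsp90 cochaperones), -0.018 to 0.12 (Hsp70 cochaperones), -0.088 to 0.045 (prefoldin and tubulin cofactors) and 0.041 to 0.080 (endoplasmic reticulum and mitochondria).

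Among the probe sets with values by dish, which did not pass the test, the sign turned after quantile normalization for Hsp90aa1 (0.081), Hspd1 (0.011) and Cct6b (-0.0069, and -0.063 after median scaling). It also turned with 1 dish left out for Hspa1a (-0.23 to 0.12), Hspa2 (-0.61 to 0.070), Hspa4 (-0.53 to 0.22), Hspa9 (-0.047 to 0.14), Hsph1 (-0.096 to 0.32), Hsp90aa1 (dim probe set) (-0.19 to 0.50), Hsp90aa1 (-0.28 to 0.054), Hsp90b1 (-0.34 to 0.066), Hspd1 (-0.35 to 0.16), Dnaja1 (-0.046 to 0.58), Dnajb1 (-0.20 to 0.21), Cct3 (-0.49 to 0.18), Cct5 (-0.087 to 0.14), Cct6a (-0.16 to 0.057), Cct6b (-0.25 to 0.14) and Cct7 (-0.051 to 0.079). The cause of these shifts was not tested.

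The deviations of same-numbered dishes correlated at -0.30, -0.33 and 0.29 on U74Av2, 0.18, 0.21 and 0.13 on U74Bv2 and 0.11, 0.13 and 0.07 on U74Cv2. Every dish correlated best with its own number on U74Bv2 and U74Cv2, but on U74Av2 this held only for number 3, while WT 1 went with STAT3-MER 2 (0.46) and WT 2 with STAT3-MER 1 (0.41). The labels name no shared day or batch, and the numbers were not taken to pair the dishes over the chips. With the number as a replicate block, 0 members passed and 6 had an unadjusted limma p under 0.05. For the 35 members with a mean signal under 100 the pseudocount draws the difference toward 0, and no detection call shows whether they were above background.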
